A study of Mus musculus with 5 samples.

Results

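The 10 small leucine-rich proteoglycan (SLRP) genes Dcn, Lum, Bgn, Fmod, Ogn, Prelp, Omd, Aspn, Podn and Epyc were taken by gene symbol from a table of 54532 genes, and each symbol matched 1 gene. RNA was sequenced from 5 sorted libraries of mouse adipose-derived stem cells, with CD31+ and CD45+ cells gated out. The stromal cells came from subcutaneous (SAT) and visceral (VAT) fat of 30 wild-type mice aged 12 to 14 weeks on chow diet, and the labels do not say which mice went into which library. They were sorted on CD26, the product of Dpp4, and CD142, tissue factor, the product of F3. The titles give SAT as CD26+CD142- in 1 library and CD26-CD142+ in 1 other, and VAT as CD26+CD142+ in 1 library and CD26-CD142+ in a pair.

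Titles and library names give the same gates in VAT and opposite gates in SAT. The name of SAT library 1 carries CD142 although its title reads CD26+CD142-, and the name of SAT library 2 carries CD26 although its title reads CD26-CD142+. Dpp4 was at 6.58 CPM (counts scaled to a common library total) in SAT library 1 and 1007 CPM in SAT library 2, and F3 was at 618 CPM in SAT library 1 and 5.32 CPM in SAT library 2, which goes with the names and against the titles. The SAT libraries are therefore called by their numbers, and each comparison that uses a SAT gate is given both ways. Total counts were between 21706345 and 25357403 per library, and the progenitor receptor gene Pdgfra was between 682 and 1173 CPM. Other fat progenitor markers were less even, with Cd34 at 741 to 1860 CPM and Ly6a at 582 to 2314 CPM. Pdgfrb was at 141 to 472 CPM and Thy1 at 34.2 to 383 CPM. In the VAT CD26+CD142+ library Thy1 was higher and Pdgfrb lower than in the VAT CD26-CD142+ pair. The share of mitochondrial transcripts was 2.83% for SAT library 1, 4.33% for VAT CD26-CD142+ library 1 and 0.554% to 0.633% for the rest.

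SLRPs are secreted core proteins built of leucine-rich repeats. They bind collagen fibrils and influence how thick the fibrils grow and how they are spaced, and many carry chondroitin, dermatan or keratan sulfate chains. Several also bind growth factors such as TGF-beta, and biglycan can signal through Toll-like receptors. In fat they are made mostly by stromal fibroblasts and progenitors, where decorin is a common marker of the mesenchymal compartment.

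In the RefSeq promoter table (GRCm38.p6, the assembly also known as mm10), 8 of the 10 genes had an entry. The 250 bases before the start site are shown for Fmod and Bgn, the genes with the widest ratios between the SAT libraries, and for Aspn and Omd, which were both higher in SAT library 2 and in the VAT CD26+CD142+ library than in the VAT CD26-CD142+ pair. All run 5′ to 3′ on the plus strand. Capitals mark matches on either strand to any of 7 motifs, which are the TATA box TATAAA, the GC box GGGCGG, the CCAAT box, the E-box CANNTG, the AP-1 motif TGANTCA, the TEAD motif GGAATG and the SMAD motif CAGAC. Matches may overlap.
Fmod, chr1:134037004-134037253: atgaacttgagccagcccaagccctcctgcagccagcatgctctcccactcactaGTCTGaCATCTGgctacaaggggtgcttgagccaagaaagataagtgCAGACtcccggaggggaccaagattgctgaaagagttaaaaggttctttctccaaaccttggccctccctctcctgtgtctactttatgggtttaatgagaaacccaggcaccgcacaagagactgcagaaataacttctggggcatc
Bgn, chrX:73483351-73483600: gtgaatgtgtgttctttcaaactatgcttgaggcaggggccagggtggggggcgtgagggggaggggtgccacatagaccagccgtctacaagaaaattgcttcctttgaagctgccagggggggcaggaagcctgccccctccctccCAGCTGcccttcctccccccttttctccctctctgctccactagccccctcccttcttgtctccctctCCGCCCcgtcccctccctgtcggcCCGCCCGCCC
Aspn, chr13:49544193-49544442: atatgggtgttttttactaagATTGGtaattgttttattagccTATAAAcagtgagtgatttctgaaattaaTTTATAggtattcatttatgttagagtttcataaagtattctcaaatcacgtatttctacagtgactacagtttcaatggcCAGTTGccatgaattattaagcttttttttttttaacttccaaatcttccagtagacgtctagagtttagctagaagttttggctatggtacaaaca
Omd, chr13:49582212-49582461: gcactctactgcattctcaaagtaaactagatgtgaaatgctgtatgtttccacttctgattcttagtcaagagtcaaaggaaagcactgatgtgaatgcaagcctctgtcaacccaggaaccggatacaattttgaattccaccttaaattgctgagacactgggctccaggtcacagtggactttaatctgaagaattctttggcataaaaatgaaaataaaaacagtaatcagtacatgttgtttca
The Fmod window held 2 CAGAC matches and 1 CANNTG match. The Bgn window was 64.4% G and C, with 3 GGGCGG matches, of which some overlap, and 1 CANNTG match. The Aspn window was 30.0% G and C, with 2 TATAAA matches, 1 CCAAT match and 1 CANNTG match. The Omd window, at 38.4% G and C, held none of the 7 motifs. Of 32851 promoters in that table, the same window holds the TATA box in 12.4%, the GC box in 32.7%, the CCAAT box in 33.8%, the E-box in 66.2%, the AP-1 motif in 6.75%, the TEAD motif in 12.6% and the SMAD motif in 42.2%. Median G and C content over all of them was 52.4%. These matches describe letters in the windows, and no binding was measured.

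The 10 genes lie mostly in neighbouring groups (mm10 coordinates of the deposited table). Dcn (ENSMUSG00000019929, chromosome 10, 97479609 to 97518143), Lum (97565128 to 97572703) and Epyc (97644068 to 97682454) lie on the plus strand with the corneal SLRP gene Kera between Lum and Epyc. Aspn (chromosome 13, 49544443 to 49567565), Omd (49582462 to 49592822) and Ogn (49608046 to 49624501) follow Ecm2, another gene of the family. Prelp (chromosome 1, 133910304 to 133921414) and Fmod (134037254 to 134048277) lie on opposite strands on chromosome 1. Bgn is on chromosome X (73483602 to 73495933) and Podn on chromosome 4 (108014791 to 108096445).

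Neighbours did not share 1 pattern. Kera was at 1.47 CPM in SAT library 1 and at most 0.0458 CPM in the other libraries, while its neighbour Lum was between 307 and 2671 CPM. Ecm2 was at 302 CPM in SAT library 1 and 84.1 CPM in SAT library 2, whereas its neighbour Aspn was at 158 CPM in SAT library 1 and 198 CPM in SAT library 2. The labels do not state whether counting used strand. Cenpp, a centromere protein gene on the opposite strand, spans Aspn, Omd and Ogn but shares 7 exonic bases with Aspn and 0 with Omd and Ogn in GENCODE release 21, and was at most 2.21 CPM. Epyc shares 40.6% of its exonic bases with the noncoding gene Gm10754 on the opposite strand, which had 0 CPM in every library, so the Epyc level is less certain than the others. Prelp shares 9.68% of its exonic bases with the antisense gene Gm15851, which was at most 0.344 CPM.

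Compared per gene length, as TPM (counts divided by gene length and scaled to a common total), decorin mRNA was by far the most abundant. Dcn was at 6217 TPM in SAT library 1, 5361 TPM in SAT library 2, 6813 TPM in the VAT CD26+CD142+ library, and 8716 and 8953 TPM in VAT CD26-CD142+ libraries 1 and 2. It ranked between 3rd and 16th of all genes by TPM and made up 53.3% to 67.6% of the summed TPM of the 10 genes. Together the 10 genes took 1.93% and 1.18% of counts in SAT libraries 1 and 2, 1.59% in the VAT CD26+CD142+ library, and 2.41% and 2.08% in VAT CD26-CD142+ libraries 1 and 2. By mean level over the 5 libraries the order was Dcn (7212 ± 1571 TPM; SD, n = 5 here and for the next 9), Lum (1587 ± 920), Ogn (1203 ± 450), Bgn (670 ± 396), Prelp (406 ± 108), Podn (270 ± 116), Aspn (168 ± 116), Fmod (50.04 ± 41.6), Omd (27.8 ± 23.9) and Epyc (5.36 ± 4.62). Only Dcn and Lum, and Omd and Epyc, had ranges that did not overlap among neighbours in this order. Dcn was first and Epyc last in all 5 libraries, while Bgn was 3rd in SAT library 1 and 8th in SAT library 2.

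**Figure D1:**
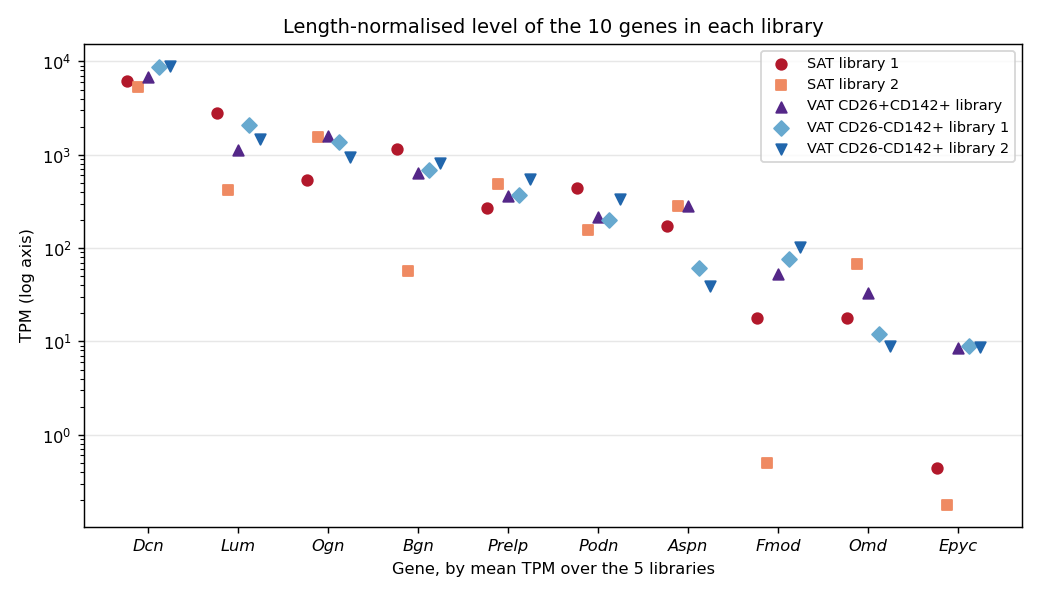
Level of each gene in each library as TPM on a log axis, with genes in order of their mean; each point is 1 library. Dcn lies above all other genes in every library, while Fmod (0.504 TPM) and Bgn (56.8 TPM) are lowest in SAT library 2 and Epyc is lowest in both SAT libraries.

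Within a gene, libraries were compared as CPM after TMM scaling, which corrects library totals for composition. Of the class I genes, Dcn and Bgn encode the closely related decorin and biglycan, which carry chondroitin or dermatan sulfate, and Aspn encodes asporin, which lacks the usual attachment site for such a chain. Dcn was at 13997 and 9323 CPM in SAT libraries 1 and 2, at 10894 CPM in the VAT CD26+CD142+ library, and at 18357 and 16045 CPM in the VAT CD26-CD142+ pair. Its highest level was 1.97-fold its lowest, and the VAT CD26-CD142+ pair lay above the other libraries. Bgn was at 2698 and 103 CPM in SAT libraries 1 and 2, at 1064 CPM in the VAT CD26+CD142+ library, and at 1529 and 1526 CPM in the VAT CD26-CD142+ pair. SAT library 2 was low and SAT library 1 high, and the SAT libraries spanned the VAT ones. Aspn was at 158 and 198 CPM in SAT libraries 1 and 2, at 181 CPM in the VAT CD26+CD142+ library, and at 52.4 and 28.7 CPM in the VAT CD26-CD142+ pair. The VAT CD26-CD142+ pair was below all other libraries.

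Of the class II genes, Lum, Fmod and Omd encode the keratan sulfate proteoglycans lumican, fibromodulin and osteomodulin, the last named from bone, and Prelp encodes a protein with a basic end that binds heparin. Lum was at 2671 and 307 CPM in SAT libraries 1 and 2, at 747 CPM in the VAT CD26+CD142+ library, and at 1840 and 1115 CPM in the VAT CD26-CD142+ pair. Fmod was at 22.9 CPM (95% exact Poisson interval 21.0 to 25.0) in SAT library 1, 0.496 CPM (0.248 to 0.888, 11 counts) in SAT library 2 and 47.5 CPM in the VAT CD26+CD142+ library, and at 92.0 and 104 CPM in the VAT CD26-CD142+ pair. Both genes were lowest in SAT library 2, and for Fmod both SAT libraries were below all VAT libraries. Omd was at 15.5 and 45.0 CPM in SAT libraries 1 and 2, at 20.4 CPM in the VAT CD26+CD142+ library, and at 9.72 and 6.24 CPM in the VAT CD26-CD142+ pair. Prelp stayed between 358 and 607 CPM, the narrowest range of the 10 genes at 1.70-fold.

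The class III genes Ogn and Epyc encode osteoglycin, also called mimecan, and epiphycan, which is best known from growth cartilage. Podn encodes podocan, which is of another class. Ogn was at 533 and 1190 CPM in SAT libraries 1 and 2, at 1128 CPM in the VAT CD26+CD142+ library, and at 1258 and 755 CPM in the VAT CD26-CD142+ pair. Podn was at 723 and 198 CPM in SAT libraries 1 and 2, at 255 CPM in the VAT CD26+CD142+ library, and at 309 and 441 CPM in the VAT CD26-CD142+ pair. For both genes SAT library 1 stood at an end of the range, lowest for Ogn and highest for Podn. Epyc had 10 and 3 counts in SAT libraries 1 and 2, which is 0.433 CPM (0.208 to 0.796) and 0.135 CPM (0.0279 to 0.395). It was at 5.89 CPM in the VAT CD26+CD142+ library and at 8.30 and 6.92 CPM in the VAT CD26-CD142+ pair, so both SAT libraries lay far below all 3 VAT libraries. In libraries from pooled cells, fewer cells making a transcript and less transcript per cell cannot be told apart.

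**Figure D2:**
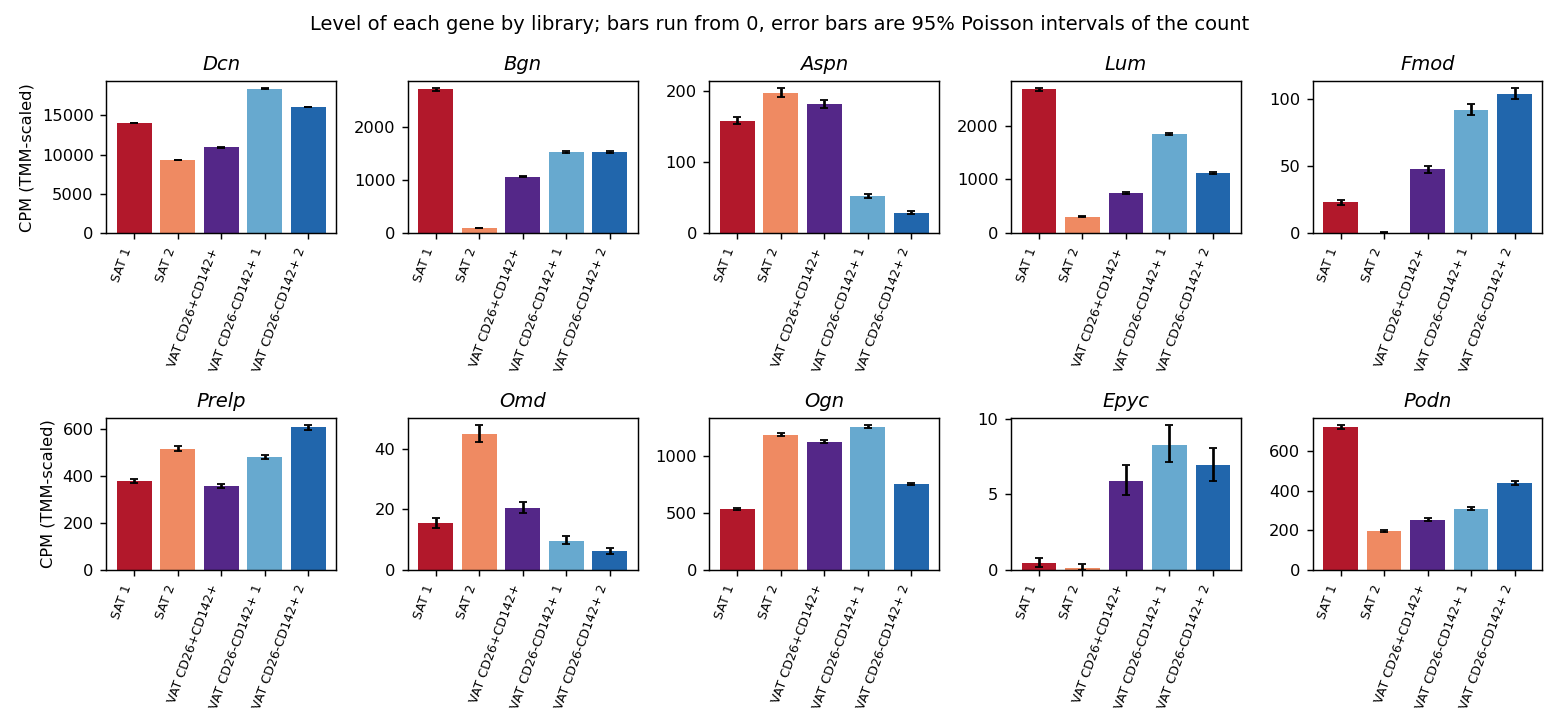
TMM-scaled CPM of each gene in SAT libraries 1 and 2, the VAT CD26+CD142+ library and the VAT CD26-CD142+ pair; bars start at 0 and error bars are 95% Poisson intervals of the count in that library. Bgn (103 CPM) and Fmod (0.496 CPM) are lowest in SAT library 2, Aspn is lowest in the VAT CD26-CD142+ pair (52.4 and 28.7 CPM), and Epyc is near 0 in SAT.

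Whether SLRP expression differs between fat depots was asked first with SAT against VAT over all gates, a comparison that does not use the SAT gate labels. The libraries of each depot come from unlike gates, so the spread in this fit, and the SDs over each depot, hold gate differences too. None of the 10 genes passed. Epyc, which met the minimum count through the VAT libraries and not through the SAT ones, came nearest, with a SAT mean of 0.284 ± 0.210 CPM (SD, n = 2) and a VAT mean of 7.04 ± 1.21 CPM (SD, n = 3), or 24.4-fold lower in SAT from 13 against 485 counts (counting interval 14.1 to 46.1). Its fitted log2 change was -4.60 (SE 0.66, edgeR adjusted p = 0.185). Over the 10 alternatives adjusted p for Epyc ran from 3.33e-10 to 1.00: it passed with DESeq2 (3.33e-10) and with no filter (0.0258), and in no other. Fmod averaged 11.7 ± 15.9 CPM over the SAT libraries and 81.0 ± 29.6 CPM over the VAT libraries, with a log2 change of -2.79 (SE 1.41, adjusted p = 0.880).

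The call rate over all genes in this comparison was low, with 8 of 15920 genes passing (0.0503%, with 0.0377% higher and 0.0126% lower). At unadjusted p under 0.05, 1 of the 10 genes (Epyc) passed with edgeR, against 1076 of 15920 tested genes. After adjustment DESeq2 called 1 of the 10, against 212 of all tested genes higher and 249 lower, and limma-voom called 0. In 2 of the 10 genes, Fmod and Epyc, both SAT libraries were below all VAT libraries, against 10.2% of all tested genes, and in 0 both were above, against 9.64%. Epyc met the minimum count through the VAT libraries alone, so its place in this count is not independent of the filter. Between the SAT and VAT CD26-CD142+ libraries numbered 1, Epyc differed by -4.26 and Fmod by -2.003 on the log2 scale (SAT minus VAT), and between libraries numbered 2 by -5.68 and -7.71. Both genes were thus lower in SAT in both of these comparisons, as were Dcn (-0.39 and -0.78) and Prelp (-0.34 and -0.23). Aspn (1.59 and 2.79) and Omd (0.67 and 2.85) were higher in SAT in both. Bgn (0.82 and -3.89), Lum (0.54 and -1.86), Podn (1.23 and -1.16) and Ogn (-1.24 and 0.66) had opposite signs between them. The VAT CD26+CD142+ library, also numbered 2, was left out here. Against that library Prelp was higher in SAT library 2 (517 against 358 CPM) and Aspn only slightly higher (198 against 181 CPM). Epyc, Fmod, Dcn and Omd kept their side. The libraries compared under number 2 were also unlike in Dpp4 (SAT 1007 CPM, VAT 6.58 CPM), so gate is not held apart from depot there. The median log2 change of the 10 genes was -0.04, against 0.01 over all tested genes.

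Depot was next compared within the CD142+ gate, against the VAT CD26-CD142+ pair. By title the SAT side is SAT library 2, in which Dpp4 was high and F3 low. There Aspn and Omd rose and Bgn, Lum, Fmod and Epyc fell. Epyc met the minimum count through the VAT libraries alone, where it was high, so its call is not independent of the filter. Aspn was at 198 CPM in SAT library 2 against 40.5 ± 16.8 CPM (SD, n = 2) in the VAT pair (log2 change 2.29, SE 0.49, edgeR adjusted p = 0.00785), and Omd was at 45.0 CPM against 7.98 ± 2.46 CPM (2.49, SE 0.48, adjusted p = 0.00332). Bgn was at 103 CPM against 1527 ± 2.19 CPM (-3.89, SE 0.68, adjusted p = 0.00159), and Lum at 307 CPM against 1478 ± 513 CPM (-2.27, SE 0.64, adjusted p = 0.0447). Fmod fell by 7.61 (SE 0.75, adjusted p = 1.47e-05), and Epyc fell by 5.76 (SE 1.00, adjusted p = 0.00159), which from 3 counts is 56.1-fold lower (counting interval 19.0 to 273). Without the VAT CD26+CD142+ library, which is on neither side of this comparison, 15376 genes were tested and Lum did not pass. With limma-voom Epyc did not pass.

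In total, 6 of the 10 genes passed by title, 2 higher and 4 lower, against 6.48% of all tested genes (2.8% higher and 3.68% lower). Dcn (-0.88, SE 0.62), Podn (-0.92, SE 0.54), Ogn (0.24, SE 0.55) and Prelp (-0.07, SE 0.52) did not pass. Epyc, which is counted among the genes that passed, was kept by the filter through the VAT libraries alone. The median of the 10 genes was -0.90, against -0.03 over all tested genes.

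By library name the SAT side is SAT library 1, in which F3 was high and Dpp4 low, as in the VAT pair. Aspn was again higher, at 158 CPM against 40.5 ± 16.8 CPM (log2 change 1.96, SE 0.49, edgeR adjusted p = 0.0475). Epyc was again lower, at 0.433 CPM against 7.61 ± 0.971 CPM (-4.12, SE 0.87, adjusted p = 0.0167), or 17.5-fold from 10 against 342 counts (counting interval 9.42 to 36.9). Fmod was at 22.9 CPM against 97.8 ± 8.29 CPM and missed the threshold (-2.09, SE 0.53, adjusted p = 0.0504). Bgn (0.82, SE 0.53), Lum (0.85, SE 0.55), Omd (0.96, SE 0.48) and Podn (0.95, SE 0.50) had positive values and Ogn (-0.92, SE 0.58) a negative one, none past the threshold.

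These were 2 of 10 genes by name, 1 higher and 1 lower, against 2.36% of all tested genes (1.36% higher and 0.992% lower). Aspn and Epyc passed by title and by name, but both comparisons use the same VAT pair, in which Aspn was below all other libraries, so these calls are not independent. Epyc also met the minimum count through the VAT libraries alone, so its call by name is not independent of the filter. The values of Bgn and Lum had opposite signs with the 2 SAT libraries. The Aspn call by name was lost with limma-voom (adjusted p = 0.0536) and without the VAT CD26+CD142+ library (0.0620). The Epyc call was lost with limma-voom (0.0998), and Fmod passed with DESeq2 (0.00339), limma-voom (0.0312), no filter (0.00838) and without SAT library 2 (0.0179). In SAT library 1 the 5 epithelial markers summed to 52.0 CPM against 0.129 to 0.536 CPM in the other libraries, led by Epcam (25.2 CPM), and their part in these values was not tested.

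**Figure D3:**
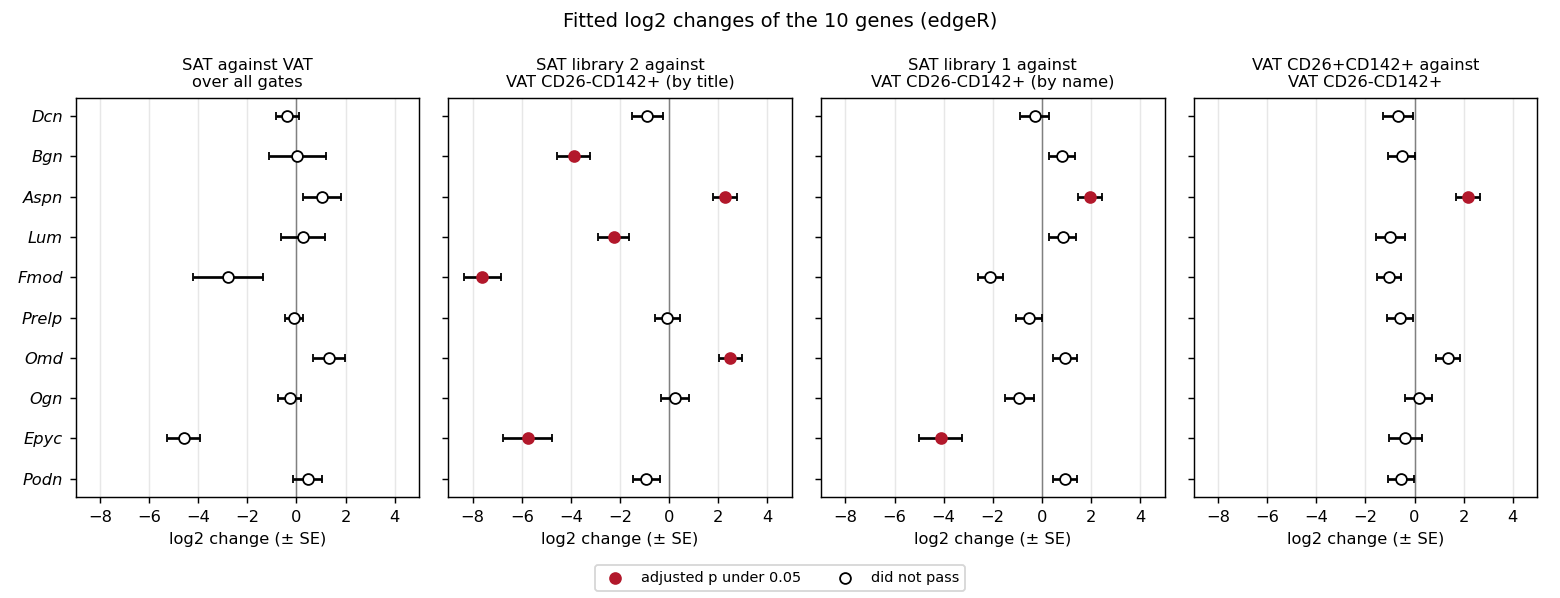
Fitted log2 change ± SE of each gene in 4 comparisons with edgeR; filled points passed at adjusted p under 0.05 over all tested genes. Aspn lies above 0 and Epyc and Fmod below 0 in all 3 SAT comparisons, which share VAT libraries, while Bgn and Lum change side between SAT library 2 (-3.89 and -2.27) and SAT library 1 (0.82 and 0.85).

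Within VAT, whose gates are not in doubt, CD26+CD142+ cells were set against CD26-CD142+ cells. Aspn was the gene that rose, at 181 CPM for CD26+CD142+ cells, with 52.4 and 28.7 CPM for the CD26-CD142+ pair. This is 4.48-fold the mean of the pair (log2 change 2.16, SE 0.49, edgeR adjusted p = 0.0348), and adjusted p ran from 0.00111 to 0.0407 over 6 alternatives. Omd was 2.56-fold higher without passing (1.36, SE 0.48, adjusted p = 0.290). The neighbouring Ogn was at 1128 CPM against 1258 and 755 CPM (0.16, SE 0.56). The other 7 genes were lower without passing, from -1.04 (Fmod, SE 0.50, adjusted p = 0.620) and -0.98 (Lum, SE 0.59) to -0.37 (Epyc, SE 0.67).

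In this comparison 1 of the 10 genes passed, against 1.6% of all tested genes (0.898% higher and 0.697% lower), and their median was -0.54 against -0.03 over all of these. Without VAT CD26-CD142+ library 1 the Aspn difference was 2.66, and without library 2 it was 1.80, in each case with no spread left for a test. Summed markers of several other cell types, some of them mostly 1 gene, moved with this gate, mesothelial ones among them. Their 7 genes summed to 204 CPM for CD26+CD142+ cells, with 2.38 and 15.2 CPM for the CD26-CD142+ pair, with Msln at 38.5 CPM against 0.779 and 2.41 CPM, and their part in the Aspn difference was not tested. In SAT libraries 1 and 2, where Aspn was at 158 and 198 CPM, Msln was at 0 and Upk3b at 0.0865 and 0.406 CPM. The whole list summed to 173 and 4.601 CPM there, and in SAT library 1 nearly all of it was the keratins Krt19, Krt18, Krt8 and Krt7, which epithelial cells also express. Endothelial markers summed to 295 CPM for VAT CD26+CD142+ cells, nearly all Tek, with 68.8 and 71.9 CPM for the CD26-CD142+ pair. Mural markers summed to 21.8 CPM for CD26+CD142+ cells, with 61.9 and 92.3 CPM for the pair, and osteoblast markers to 5.81 CPM, with 43.5 and 39.5 CPM for the pair. The mural difference was mostly Myh11 (5.98 CPM, with 37.9 and 62.6 CPM for the pair). Notch3 was also lower, Rgs5 was higher (2.60 CPM, with 2.06 and 1.38 CPM), and Acta2 and Cspg4 lay between the pair. The osteoblast sum was nearly all Alpl. Adipocyte markers summed to 0.701 CPM for CD26+CD142+ cells, with 8.48 and 17.5 CPM for the pair. That difference was mostly Plin1 (0.0412 CPM, with 5.36 and 12.9 CPM for the pair). The part of these in the Aspn difference was not tested either. VAT CD26-CD142+ library 1, with its larger mitochondrial share, was closer to the CD26+CD142+ library in Aspn than library 2 was.

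The SAT libraries are 1 library against 1 and were compared without a test. With a pseudocount of 1 CPM, 9 genes reached 10 CPM in either library. Of these, 4 were at least 2-fold higher in SAT library 1 and 2 at least 2-fold lower, against 11.3% and 11.2% of all 9689 genes at that level (22.4% in both directions). Bgn was 26.1-fold higher in SAT library 1 than in SAT library 2, Fmod 46.2-fold (counting interval 25.6 to 93.2), Lum 8.69-fold and Podn 3.66-fold. Omd and Ogn were the other way, at 2.90-fold and 2.23-fold higher in SAT library 2. Dcn, Prelp and Aspn were less than 2-fold apart. Tek, which the endothelial list holds, was at 19.9 CPM in SAT library 1 and 290 CPM in SAT library 2, while Pecam1 and Cdh5 were at most 7.26 CPM in all libraries.

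**Figure D4:**
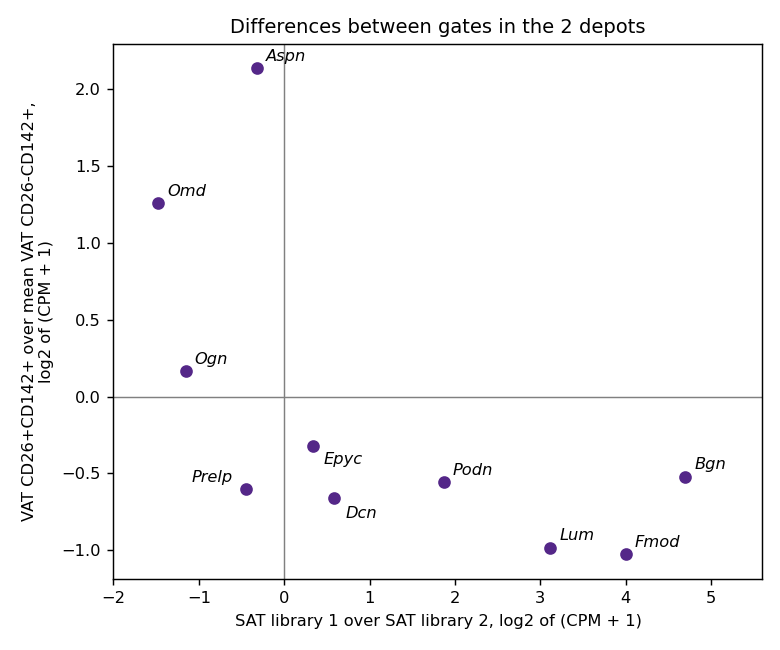
Difference between the SAT libraries (x axis, library 1 over library 2) and between the VAT gates (y axis, CD26+CD142+ over the mean of the CD26-CD142+ pair) for each gene, both as log2 of CPM + 1. Bgn (4.69) and Fmod (4.00) are furthest right, and Aspn is highest on the VAT axis (2.14) but near 0 on the SAT axis (-0.32).

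Whether CD26 status goes with SLRP levels in both depots was tested with depot as a term. By title the SAT gates differ in CD142 as well as CD26, and F3 was far apart between the SAT libraries, while the VAT gates differ in CD26 alone by label, so the contrasts joined here and compared between depots next are not alike. By title 0 of the 10 genes passed, against 0.0% of all tested genes. With edgeR 0 of them were at unadjusted p under 0.05, against 140 of 15920 tested genes, and DESeq2 and limma-voom called 0. By name 0 of 10 passed, against 0.597% of all tested genes. With edgeR 4 of them were at unadjusted p under 0.05, against 2551 of 15920 tested genes. DESeq2 called 3 by name, 1 higher and 2 lower, against 561 of 15920 genes higher and 768 lower. With limma-voom 0 of the 10 were called.

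The gate effect was then compared between depots. By title (SAT library 1 minus SAT library 2, less the VAT difference), Lum differed by 4.10 (SE 0.93, edgeR adjusted p = 0.0121), Bgn by 5.23 (SE 0.92, adjusted p = 0.00207), Fmod by 6.56 (SE 0.88, adjusted p = 2.22e-04) and Omd by -2.89 (SE 0.76, adjusted p = 0.0305). These are 4 of 10 genes, 3 higher and 1 lower, against 6.61% of all tested genes (3.89% higher and 2.73% lower). By name, with the SAT libraries exchanged, Fmod differed by -4.47 (SE 0.82, adjusted p = 0.0298). Fmod was 46.2-fold apart between the SAT libraries and 2.06-fold between the VAT gates. Bgn did not pass by name (-4.19, SE 0.85, adjusted p = 0.0623), nor did Lum (-2.14, SE 0.87, adjusted p = 0.859). By name 1 of 10 genes passed, against 0.251% of all tested genes (0.0377% higher and 0.214% lower), and with limma-voom 0 did.

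Genes that make, bind or cut SLRPs were described from lists chosen by function. Here and in the next paragraphs, genes named as furthest from 0 are those among genes with at least 10 CPM in 1 library. Some genes below that level lay further from 0. In SAT against VAT over all gates, none of them passed. The lists were 8 other SLRP genes (5 tested, median log2 change -0.45), 6 genes of the linker that joins the sugar chain to the core protein (0.03), 15 of chondroitin and dermatan sulfate (14 tested, 0.09), 7 of keratan sulfate (4 tested, 0.29), 11 collagens (0.53), 12 of SLRP processing and cleavage (11 tested, 0.54), 18 receptors and ligands (16 tested, 0.20) and 15 other proteoglycan core proteins (13 tested, -0.04). The median over all tested genes was 0.01. Col1a1, a chain of the main fibril collagen, had a value of 2.54 (SE 0.52, adjusted p = 0.338), and 10 of 11 collagens were on the SAT side. Chst11, a chondroitin sulfotransferase gene, was at 3.49 (SE 0.55, adjusted p = 0.220), and Mmp3, a protease gene whose product cuts decorin, at 6.54 (SE 0.82, adjusted p = 0.146). The next furthest from 0 in these lists were Col12a1 (2.36, SE 0.95), Chst15 (-1.62, SE 0.64) and Tll1 (3.25, SE 0.40). In the other lists the pairs furthest from 0 were Tsku (1.09) and Chadl (0.88), Xylt1 (0.58) and B3galt6 (0.32), B4galt4 (0.29) and Chst1 (0.28), Cd44 (0.94) and Met (0.94), and Prg4 (4.69) and Sdc3 (-2.28), none past the threshold.

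In VAT CD26+CD142+ against CD26-CD142+ cells, 1 gene of each of 4 lists passed. Chst1, a keratan sulfate sulfotransferase gene, rose by 3.33 (SE 0.47, adjusted p = 0.00157). Col14a1, a fibril-associated collagen gene, rose by 2.16 (SE 0.51, adjusted p = 0.0449) and Bmp2, a growth factor gene, by 2.54 (SE 0.51, adjusted p = 0.0197). The syndecan gene Sdc1 fell by 2.65 (SE 0.55, adjusted p = 0.0209). The other SLRP, linker, chondroitin and dermatan sulfate, and processing lists had 0 genes that passed, with medians of -0.27, -0.08, -0.11 and -0.71. Furthest from 0 in them were Tsku (1.30) and Ecm2 (-0.44), Xylt1 (0.67) and B4galt7 (-0.66), Chst15 (-1.74) and Csgalnact1 (-0.85), and Pcolce2 (2.03, adjusted p = 0.0521) and Mmp3 (-1.81).

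Against the VAT CD26-CD142+ pair, Chst11 (3.11, SE 0.62 by title and 4.25, SE 0.63 by name), Mmp3 (5.22, SE 0.53 and 6.71, SE 0.56), Tll1 (3.12, SE 0.61 and 2.97, SE 0.61) and the lubricin gene Prg4 (5.49, SE 0.53 and 3.27, SE 0.50) rose with either SAT library. Tll1 encodes a protease related to the one that removes the biglycan propeptide. By title, Tsku (1.94, SE 0.47), a secreted SLRP-related gene, Col12a1 (3.61, SE 0.55), Col14a1 (2.22, SE 0.51), Pcolce2 (2.46, SE 0.49), Bmp2 (2.92, SE 0.51), Tgfbr2 (2.01, SE 0.53) and Tlr2 (1.61, SE 0.45) also rose, and Sdc1 (-2.26, SE 0.54) fell. Chst3, another sulfotransferase gene, also passed on the lower side, at 0 counts in SAT library 2 against 3.80 and 5.42 CPM in the VAT pair (adjusted p = 0.00247), and no fold is given for it. Like Epyc, Chst3 met the minimum count through the VAT libraries alone. By name, Col1a1 rose (2.80, SE 0.59) and Chst15 fell (-2.46, SE 0.56). Chst1 rose by title (3.29, SE 0.47) and fell by name (-4.19, SE 0.65). None of the 6 linker genes passed either way. The furthest from 0 among them by title were Xylt1 (1.48, SE 0.75) and B4galt7 (-0.61, SE 0.54), and by name B3galt6 (0.55, SE 0.52) and Xylt1 (-0.34, SE 0.79). By name 0 genes passed among the other SLRPs, where Tsku (1.31, SE 0.48) and Chadl (1.08, SE 0.56) were furthest from 0, and 0 among receptors and ligands, where Cd44 (1.02, SE 0.46) and Bmp2 (-0.89, SE 0.57) were.

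Most markers of cartilage, tendon and bone, tissues known for these genes, were near 0. Acan was at 0 in every library, and Scx, Mkx, Col2a1 and Matn3 were at most 0.645 CPM. Tnmd was between 0.271 and 8.07 CPM and Sox9 between 10.6 and 70.6 CPM. The 7 tendon and cartilage markers summed to 31.8 and 11.3 CPM in SAT libraries 1 and 2 and 23.2 CPM in the VAT CD26+CD142+ library. In the VAT CD26-CD142+ pair they summed to 79.3 and 66.5 CPM, highest where Fmod and Epyc were highest. Most of each sum was Sox9. The sum was larger in SAT library 1 than in the VAT CD26+CD142+ library, while Fmod and Epyc were lower there. The part of these markers in the Fmod and Epyc levels was not tested. The osteoblast genes Sp7 and Ibsp were at 0 in every library and Bglap was at most 0.389 CPM. Alpl, the fourth of that list, was at 19.9 and 0.677 CPM in SAT libraries 1 and 2 and 5.73 CPM in the VAT CD26+CD142+ library. In the VAT CD26-CD142+ pair Alpl was at 43.3 and 39.5 CPM. It was lowest in SAT library 2 and highest in that pair, as Fmod was, and its part in the Fmod level was not tested.

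For the 7 genes with at least 10 CPM and a log2 range of at least 1, the most alike profiles among 10174 genes were taken by the root mean square difference of centred log2 values over the 5 libraries. For Omd these were Irf7 (0.116) and Gbp9 (0.186), and for Bgn Fmo2 (0.226) and Fscn1 (0.330). Irf7 was at 45.2 and 132 CPM in SAT libraries 1 and 2, 68.4 CPM in the VAT CD26+CD142+ library, and 31.9 and 24.3 CPM in the VAT pair. Lum was most like Nrep (0.174) and Eva1b (0.238), Fmod most like Cilp (0.382) and Ccbe1 (0.404), and Aspn most like Gngt2 (0.264) and Prss23 (0.300). Podn was most like Acot7 (0.0962) and Kitl (0.108), and Ogn most like 2610021A01Rik (0.188) and Shpk (0.192). With 5 libraries and many candidates such nearness is a description only.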

How the data were processed

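The deposited values are whole-number read counts for each Ensembl gene in 5 libraries, not normalized, beside a gene length in bases. Per the submitters' processing notes, CASAVA, HISAT2 2.0.5 and featureCounts 1.5.0-p3 were used with mm10. The annotation release and strand setting are not given in the sources used here. All 10 genes passed filterByExpr (minimum count 10, depot as group; Epyc through the VAT libraries alone), which kept 15920 of 54532 genes.

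From these, CPM were computed after TMM scaling and TPM from the deposited lengths. Tests were edgeR 4.0.16 quasi-likelihood F tests (R 4.3.3) with robust dispersion and a threshold of 0.05 after Benjamini-Hochberg adjustment across the genes kept. The depot fit has 3 residual degrees of freedom and the CD26 fit 2. The 4-group fit has 1, from the VAT CD26-CD142+ pair, and each lone library is assumed to vary like that pair. SE was taken from the size of the log2 change and the F statistic. The labels do not say that libraries are separate pools of mice, so p-values measure the spread between libraries, which may be technical. In the depot fit that spread also holds the differences between gates within a depot. Poisson intervals and those of count ratios are at 95% and hold no more than counting error, and without molecular identifiers reads may be copies of 1 molecule.

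The fits were tested on simulated data. DESeq2 1.42.0, limma 3.58.1, no filter, size factors, left-out libraries, a block on library number and SAT gates by name were alternatives. The 10 genes and all lists were chosen with earlier results of these data known, all 10 genes are named, and of each list the genes that passed (at most 6) or, where none did, the 2 with the largest change among those with 10 CPM in a library. Ccn4 was not found under that symbol. Sequences are from the RefSeq promoter table of GRCm38.p6.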

Additional observations from a re-analysis of the deposited data

Results flagged for a closer look

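The difference between the libraries of SAT and that between the gates of VAT was tested directly with edgeR's interaction term, and 5 results passed. With SAT gates by title the gate effect in SAT minus that in VAT was 4.10 for Lum, 5.23 for Bgn, 6.56 for Fmod and -2.89 for Omd, all on the log2 scale. With SAT gates by library name it was -4.47 for Fmod. Exchanging the SAT libraries exchanges the sign of the SAT difference, so the direction and size of each value depend on which SAT label holds. By name Lum, Bgn and Omd did not pass. The Dpp4 and F3 levels of the SAT libraries went with the names. By title the SAT gates differ in CD142 as well as CD26 and the VAT gates in CD26 alone, so unlike contrasts are compared. In transcript level F3 differed between the VAT gates too. Each SAT gate is 1 library, assumed to vary like the VAT CD26-CD142+ pair.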

How the results depend on the processing

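For SAT against VAT, 1 of the 10 genes passed with no filter and 1 with DESeq2, against 0 as reported. Over all genes, 8 passed as reported, 70 with no filter, 461 with DESeq2, 0 with limma-voom and 0 to 17 with 1 library left out (17 without SAT library 1). Lum reversed to -0.36 with limma-voom and Bgn to -1.37, and the ranges with 1 library left out crossed 0 for Lum (-2.01 to 1.10), Bgn (-3.74 to 0.97), Ogn (-0.98 to 0.17), Prelp (-0.36 to 0.10) and Podn (-0.77 to 1.10).

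The labels do not say that a library number marks a shared batch. Between depots, deviations from the depot means correlated at 0.596 for number 1, and for number 2 SAT library 2 correlated at 0.0308 with VAT CD26-CD142+ library 2 and at 0.586 with the VAT CD26+CD142+ library. Within VAT the number 2 libraries correlated at -0.330. Deviations from a shared mean tend to correlate below 0 within a depot, so this value cannot count against a shared batch. The deviations of the SAT libraries mirror each other, so the values between depots are not independent. Mitochondrial shares were also higher in both libraries numbered 1. These values do not decide whether a number marks a shared batch. The numbers were not taken as pairs, and a shared batch cannot be told apart from the gates. With the replicate block 0 of the 10 genes passed in SAT against VAT, 5 of all genes did, and Lum was -0.64 and Bgn -1.58. With the block 0 of all genes passed for the CD26 gate by name.

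Within the CD142+ gate, SAT gates by library name gave 2 of the 10 genes (6 by title) and 375 of all genes (1032 by title), and reversed Lum (0.85), Bgn (0.82), Ogn (-0.92) and Podn (0.95). By name, limma-voom called 1 of the 10 genes, 1 to 3 passed with a library left out, and all-gene calls were 727 with no filter and 332 to 580 with a library left out. DESeq2 split them 199 higher and 236 lower, against 217 and 158.

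For the VAT gates 254 genes passed, 491 with no filter and 356 to 383 with a SAT library left out. DESeq2 split them 155 higher and 178 lower, against 143 and 111. For the CD26 gate by title, 0 to 3 of the 10 genes passed with 1 library left out, and of all genes 12 with DESeq2, 95 by name and 0 to 522 with 1 left out, the highest of each without the VAT CD26+CD142+ library. By name, 1 of the 10 genes passed with no filter, 3 with DESeq2 and 0 to 3 with 1 left out, and of all genes 775, 1329 and 138 to 2034.

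For the difference between depots, gates by name gave 1 of the 10 genes (4 by title) and 40 of all genes (1053 by title, 1621 with no filter), with Lum -2.14, Bgn -4.19, Fmod -4.47 and Omd 0.18. By name, 2 of the 10 genes passed with no filter, 2 with DESeq2 and 0 with limma-voom, and of all genes 181, 82 and 10. The cause of these changes was not tested. Without a VAT CD26-CD142+ library the 4-group fit has no spread left, so those are values with no test.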
